A study of Bos taurus with 2 samples.

Results

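The genes described here are those named as cytosolic ribosomal proteins in single-cell RNA profiles of cattle (Bos taurus) embryos. They were chosen by name alone: every row of the count table whose symbol is RPL or RPS followed by a digit, which gave 90 of 17846 gene rows. By name and known function, 72 of these encode core proteins of the ribosome (42 of the large subunit and 30 of the small subunit). A further 7 are paralogs, close copies of a core gene, and 11 only share the letters of the name: 10 kinases named after ribosomal protein S6, and RPS19BP1, which encodes a protein that binds RPS19. The core genes held 98.8% of all UMIs in the 90 rows, the paralogs 0.656% and the non-ribosomal rows 0.587%. A UMI is a molecular tag that counts each captured RNA molecule once.

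Cells came from embryos flushed on day 25, chimeras to which bovine embryonic stem cells had been added; no label says which cells were of donor origin. Both samples belong to the same group, replicates 1 and 2, with no treatment or genotype contrast, and the labels do not say whether they came from separate embryos or pools. All tests below therefore compare classes of cells within the same 2 suspensions, and their p-values measure only the spread between these samples, which may be technical. The suspensions had been sorted before loading on a 10x Genomics droplet system that reads RNA 3′ ends, by a gate that the labels do not describe.

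The cytosolic ribosome translates messenger RNA into protein. Its large subunit joins amino acids and its small subunit reads the message, and each holds a single copy of most of its proteins. The messengers of ribosomal proteins start with a shared pyrimidine-rich motif and are known to be translated and stabilised together under control of growth signalling, and they are among the most abundant messengers of a growing cell. Ribosomal protein genes also have many processed copies in mammalian genomes, so reads of near-identical genes can be counted for the wrong copy.

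Replicate 1 held 1939 kept cells with a median of 4987 UMIs and replicate 2 held 2420 with a median of 5704. A cell was kept if it had at least 500 detected genes and less than 20% mitochondrial UMIs, which 4359 of 4437 did, and 6 cell barcodes occurred in both libraries. The deposited cells had fewer than 4000 detected genes each (201 to 3999) and at most 4.98% mitochondrial UMIs, and no doublet caller was run here. Cells were placed in gates by counts of marker genes: at least 1 UMI of the neural progenitor factor SOX2, at least 2 detected genes of the 6 neuronal genes DCX, STMN2, ELAVL4, ELAVL3, INA and TUBB3, or at least 2 UMIs of the collagen VI genes COL6A1, COL6A2 and COL6A3. Cells in more than 1 gate (434 and 596) were left out of the gate comparisons, and deeper cells pass such gates more easily. The gates held 583 and 780 SOX2 cells, 359 and 371 neuron cells, 40 and 74 collagen VI cells, and 523 and 599 cells in no gate (ungated), in replicates 1 and 2. Genes that no gate used differed with the gates: COL1A1, a collagen I chain, was at 10698 and 9963 CPM (UMIs scaled to a fixed library total) in collagen VI cells with a high ribosomal share, against 28.1 and 25.8 CPM in such SOX2 cells, and PAX6, another neural progenitor factor, was at 10.5 and 4.3 against 67.5 and 52.0 CPM. PAX6 did not single out the SOX2 gate: neuron cells with a high ribosomal share had 96.4 and 125 CPM.

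The share of a cell's UMIs that fell in the 90 rows was very uneven between cells. The median share was 3.98% in replicate 1 and 5.35% in replicate 2 (4.67 ± 0.972, SD, n = 2). It ran from 0.612% to 72.2% in replicate 1 and from 0.568% to 70.9% in replicate 2. The lower quartile was 2.28% and 2.42% and the upper quartile 13.1% and 19.3%, so most cells lay either near the low end or well above it. Shares under 5% were found in 56.6% and 48.5% of cells, and shares of 15% or more in 21.7% and 32.7%. These bounds define the low-share and high-share classes used below, and the cells between them took 21.7% and 18.8%. Next to the bounds there was no gap in shares: the nearest cells below and above 5% had 4.98% and 5.02% in replicate 1 and 4.98% and 5.03% in replicate 2, and those next to 15% had 14.9% and 15.0%, and 15.0% and 15.0%.

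**Figure D1:**
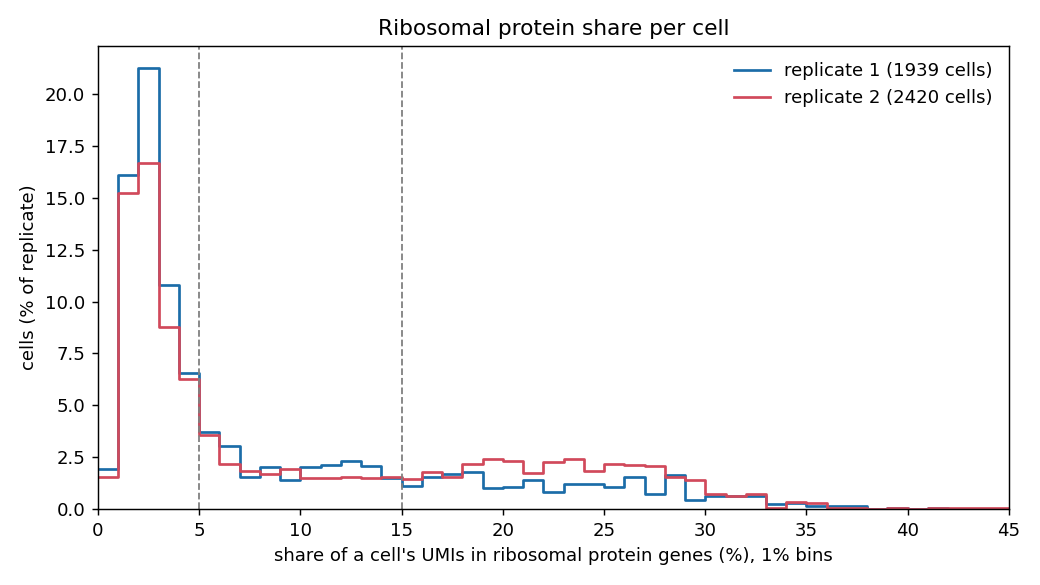
Share of each cell's UMIs in the 90 ribosomal protein rows (x axis, percent, bins of 1%) against the percent of cells of each replicate (y axis); dashed lines mark the bounds at 5% and 15%. Both replicates have a narrow peak under 5% and a broad spread of cells at higher shares, without a peak of its own above 15% in replicate 1; 4 cells of replicate 1 and 3 of replicate 2 lie beyond the axis at 45% or more.

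The share differed between gates in both replicates. SOX2 cells had median shares of 3.77% and 5.39% (4.58 ± 1.14, SD, n = 2), close to those of all cells. Neuron cells had 2.77% and 5.15% (3.96 ± 1.69). Ungated cells had 3.47% and 3.20% (3.34 ± 0.189). The values of SOX2 and neuron cells overlap, those of ungated cells lie between the neuron values, and the order of these 3 gates is not the same in both replicates. Collagen VI cells stood apart, with medians of 20.0% and 24.6% (22.3 ± 3.27), above every other gate in both replicates. Of the collagen VI cells, 57.5% and 75.7% had a share of 15% or more, against 22.0% and 33.3% of SOX2 cells, 8.91% and 18.9% of neuron cells, and 13.4% and 15.2% of ungated cells. The cells in more than 1 gate, left out of these comparisons, had medians of 11.2% and 16.1%. Of them 38.5% and 52.7% had a share of 15% or more. They held 167 of the 420 and 314 of the 791 high-share cells in replicates 1 and 2. With 2 samples of 1 group these shares were not tested.

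Low-share and high-share cells also differed in depth. In SOX2 cells the median low-share cell had 107 and 95.5 ribosomal protein UMIs and the median high-share cell 2225.5 and 2273.5, a ratio of 20.8 and 23.8. The UMIs of all other genes rose from a median of 4335 and 3975 to 7324 and 7444.5, a ratio of 1.69 and 1.87. The median number of detected genes was 2648 and 2466.5 in low-share cells and 3396 and 3485.5 in high-share cells, and the median mitochondrial share was 0.467% and 0.420% against 0.218% and 0.164%. In neuron cells the mitochondrial share lay the other way, at 0.341% and 0.317% in low-share and 0.421% and 0.384% in high-share cells. High-share SOX2 cells thus held more UMIs of both kinds, and the ribosomal protein UMIs differed far more than the rest. The ratio of ribosomal protein UMIs was 13.5 and 25.4 in neuron cells, 19.7 and 30.8 in ungated cells, and 40.3 and 25.5 in collagen VI cells. What part this difference in depth has in the results below was not tested directly; for SOX2 cells, values in cells of 4000 to 8000 UMIs are given below. Marker genes of SOX2 cells also differed between the classes. PAX6 was at 182 and 155 CPM in low-share and at 67.5 and 52.0 CPM in high-share cells. The keratin genes went the other way. KRT8 went from 28.4 and 21.1 to 78.9 and 157 CPM, and KRT18 from 41.4 and 24.7 to 124 and 143 CPM. SOX2 itself was at 413 and 413 against 412 and 350 CPM. What part cell identity has in the results was not tested.

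Since the classes were cut on the sum of these genes, the common change between them is set by the cut and is given as a description only. Summed over the cells of a class and normalised over all genes (trimmed mean of M-values, TMM), the 72 core genes were higher in high-share than in low-share SOX2 cells by a median of 4.16 on the log2 scale, against -0.03 for all 11761 genes tested. The smallest of these changes was 2.58 for RPL4 and the largest 4.67 for RPS13 and for RPL32. The SD over the 72 genes was 0.38. The median was 4.28 in neuron cells and 4.91 in ungated cells. All core genes, of both subunits, were thus higher in high-share SOX2 cells, within a narrow range, and 40 of 72 lay within 0.25 of the common change and 62 within 0.5.

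Ribosomal proteins whose symbols the rule does not match give a view of the split that the cut did not use. Among them are the stalk proteins RPLP0, RPLP1 and RPLP2, which recruit elongation factors, the small subunit protein RPSA, and FAU, which encodes a ribosomal protein fused to a ubiquitin-like protein. Of these genes 6 of 6 rose in high-share SOX2 cells, with a median log2 change of 4.10 (edgeR's quasi-likelihood test with Benjamini-Hochberg adjustment over all genes; of all genes tested, 31.2% were called higher and 28.8% lower). RPLP1 was at 357 and 334 CPM in low-share cells and at 4453 and 4595 CPM in high-share cells, a log2 change of 4.47 (SE 0.15, adjusted p = 1.97e-26). RPLP0 went from 336 and 298 to 3730 and 3696 CPM. RPSA, at 557 and 528 CPM in low-share cells, reached 4785 and 4733 CPM. The groups did not overlap for any of these 3 genes, which was not counted over all genes. The 6 changes, from 3.87 (RPLP2) to 4.47, lay within the range of the core genes counted by the rule.

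The next question was which single genes left the common change. For this the counts of each class, gate and replicate were summed, the library size of a sum was taken as its core ribosomal protein UMIs, and replicate was a block in the model. A value of 0 then means that a gene kept pace with the core genes, and the level of a gene is given as UMIs per 1000 core ribosomal protein UMIs of the same cells. In SOX2 cells 8 of 72 core genes were called higher and 17 lower than the common change (adjusted p under 0.05, edgeR's quasi-likelihood test with Benjamini-Hochberg adjustment over all 11761 genes). Of all genes tested on this scale, 0.102% were called higher and 94.5% lower (94.6% in all), as most other genes did not share in the rise. With so many genes called, the adjustment is weak: the largest adjusted p called was 0.0308, at an unadjusted p of 0.0290, and 12 of the 25 had an unadjusted p under 0.001. All 25 had the same sign in both replicates. Core genes whose values are said below not to overlap were picked from called genes with the same sign in both replicates. Such values are thus no added support, and they were not counted over all genes. The large subunit had 4 higher and 13 lower of 42, and the small subunit 4 higher and 4 lower of 30; this difference between subunits was not tested. Over the 72 genes the departures of replicate 1 and replicate 2 had a Pearson correlation of 0.942 (Spearman 0.937), a description across genes, which are not independent replicates.

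The departures were small beside the common change for most genes, and RPL4 and RPS9 stood outside the others. RPL4, a large subunit protein that lines the exit tunnel of the growing peptide, was at 8.85 and 7.57 per 1000 in low-share SOX2 cells and at 2.91 and 2.89 in high-share cells (8.21 ± 0.904 against 2.90 ± 0.013, SD, n = 2). It fell behind the common change by 1.54 on the log2 scale (SE 0.12, adjusted p = 4.98e-14), and its 2 groups were far apart. RPS9, a small subunit protein at the site where the messenger is read, was at 27.2 and 26.4 per 1000 in low-share cells and at 11.9 and 12.5 in high-share cells, a departure of -1.18 (SE 0.16, adjusted p = 3.7e-08). On the scale of CPM both genes were still higher in high-share cells: RPL4 went from 218 and 183 to 716 and 702 CPM, and RPS9 from 670 and 638 to 2937 and 3021 CPM. Their messengers thus took a smaller part of a larger ribosomal protein pool.

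A second set of core genes fell behind by between 0.46 and 0.75. RPL5, which carries the 5S ribosomal RNA into the large subunit together with RPL11 and can bind the p53 regulator MDM2, was at 19.7 and 19.4 per 1000 in low-share and at 11.7 and 12.2 in high-share SOX2 cells (departure -0.75, SE 0.16, adjusted p = 5.92e-05). RPL17, a protein of the exit tunnel, was at 9.65 and 8.49 against 5.55 and 6.22 (departure -0.67). RPL3, which reaches towards the centre where peptide bonds form, was at 10.9 and 11.3 against 7.31 and 7.17 (departure -0.66). For these 3 genes every low-share value was above every high-share value. The small subunit protein RPS21 departed by -0.56, and the large subunit proteins RPL29, RPL21 and RPL38 by -0.53, -0.49 and -0.46. RPL38 is known in mice for a role in the translation of homeobox messengers. A further 7 lower genes, RPL6, RPL36, RPL23A, RPS19, RPL19, RPL35 and RPL22, departed by between -0.45 (RPL6) and -0.26 (RPL22).

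The 8 core genes that rose ahead of the common change did so by little. The large subunit gene RPL32 was at 14.3 and 12.5 per 1000 in low-share SOX2 cells and at 20.0 and 20.5 in high-share cells, a departure of 0.54 (SE 0.16, adjusted p = 0.00255). The small subunit gene RPS13 was at 10.2 and 8.82 against 14.2 and 14.4, also a departure of 0.54 (adjusted p = 0.00353). RPL37 was at 8.95 and 8.29 against 13.1 and 12.1 (departure 0.50), and RPL12, a protein at the base of the stalk, at 8.15 and 7.42 against 10.4 and 11.1 (departure 0.42). In each of these 4 genes, named because they were called, the low-share and high-share values did not overlap. The remaining 4 were RPS27A, made as a fusion with ubiquitin, at 0.41, RPS4X at 0.33, RPL26 at 0.28 and RPS3, at the entry of the messenger channel, at 0.26.

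A gene's own counts help to place a cell in its class. When large subunit genes were tested between classes cut on the small subunit share, and the reverse, the same 8 higher and 17 lower genes were called. A band of cells with like depth, which also held fewer cells, shared these calls in part. Among cells with 4000 to 8000 UMIs (171 and 176 low-share and 26 and 48 high-share SOX2 cells), 10 core genes were called higher and 12 lower; 4 of the 8 and 10 of the 17 were called again. RPL4 departed there by -1.50 (adjusted p = 1.26e-09), RPS9 by -1.31 and RPL5 by -0.65. The 4 higher genes not called in that band were RPS27A, RPS3, RPL26 and RPS4X. The 7 lower ones were RPL36, RPL35, RPL21, RPL22, RPS19, RPL23A and RPL38. Depth and the number of cells changed together in this band, and their parts cannot be told apart.

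**Figure D2:**
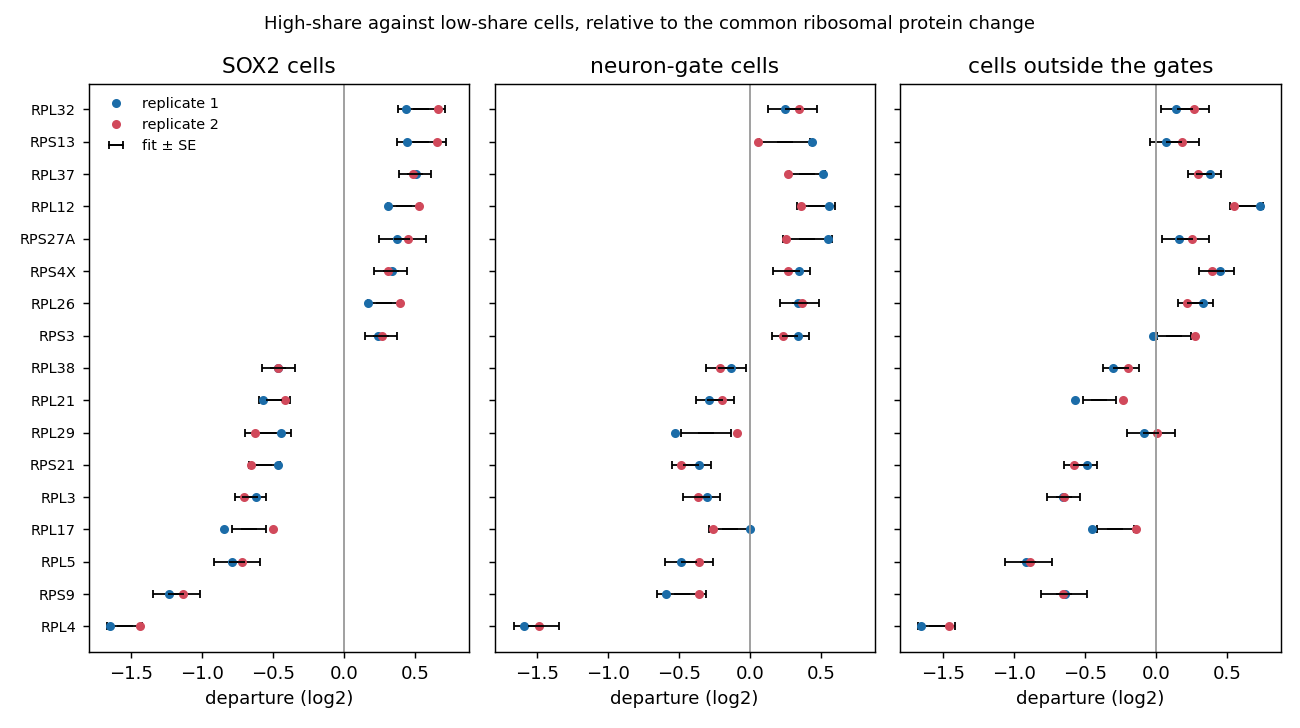
Departure of core genes called in SOX2 cells (rows, 8 higher and 9 lower) from the common ribosomal protein change between high-share and low-share cells (x axis, log2), in SOX2, neuron and ungated cells. Black bars are the fitted value ± SE and coloured points the 2 replicates; RPL4 lies near -1.5 in each gate, while RPS9 lies at -1.18, -0.48 and -0.65.

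The change of composition with share was not abrupt for RPS9 but came at a higher share for RPL4 and RPL12. In SOX2 cells split into finer bins of share, RPS9 was at 27.0 and 26.8 per 1000 in cells under 2%, at 18.7 and 19.2 from 5% to 10%, at 14.5 and 15.2 from 10% to 15%, and at 12.6 and 12.0 from 25% to 30%. Its level was thus already lower below the bound of the high-share class. From 25% to 30% it lay close to the level of that class as a whole. RPL4 was at 9.81 and 7.47 per 1000 from 2% to 3%, at 8.48 and 6.43 from 5% to 10%, at 5.19 and 5.89 from 10% to 15%, and at 2.86 and 3.09 from 20% to 25%. RPL4 moved later along the share than RPS9. RPL12 lay between 7.47 and 7.62 per 1000 in both replicates from 5% to 15%, within its range at lower shares, and at 10.4 and 11.0 from 20% to 25%. These values describe the same cells as the tests above and were not tested again.

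**Figure D3:**
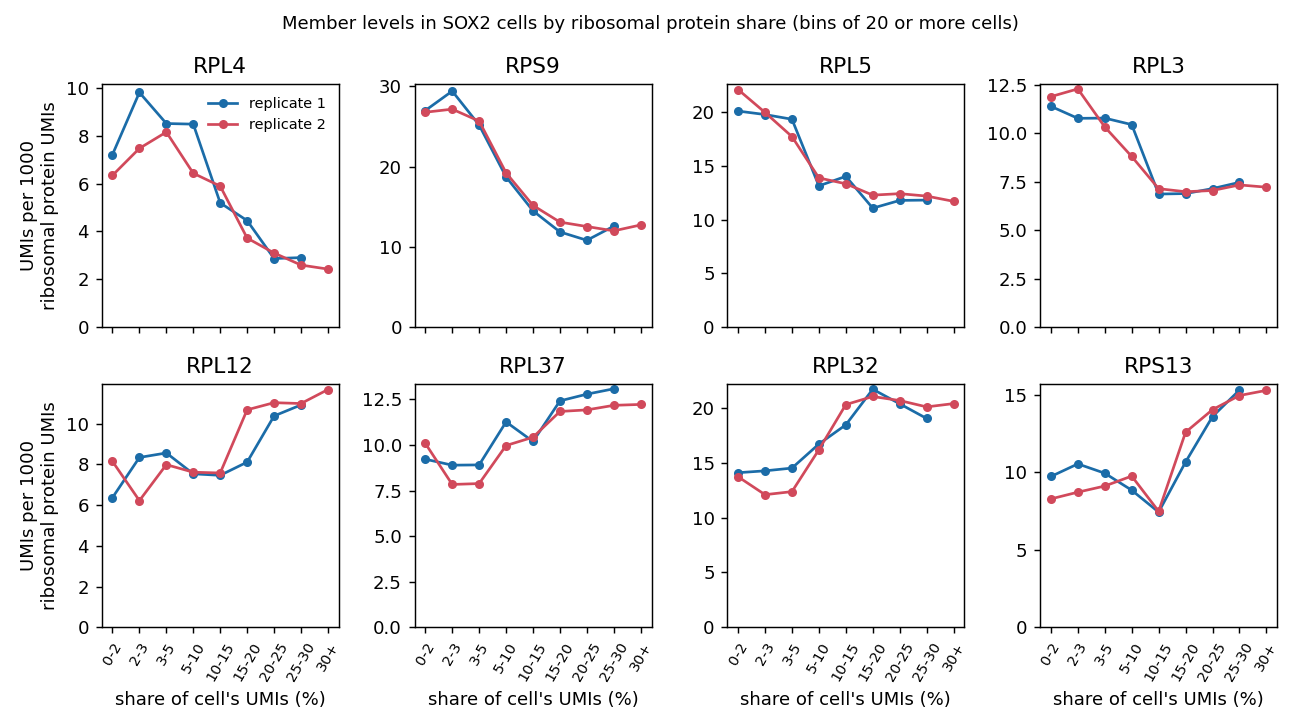
UMIs of 8 core genes per 1000 core ribosomal protein UMIs (y axis) in SOX2 cells grouped by ribosomal protein share (x axis, percent), with 1 line per replicate and bins of 20 or more cells. RPL4, RPS9, RPL5 and RPL3 are lower and RPL12, RPL37, RPL32 and RPS13 higher at high shares in both replicates, and RPS9 drops from about 27.0 to 12.0.

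Neuron cells were compared in the same way with 221 and 185 low-share and 32 and 70 high-share cells. Of the 72 core genes 7 were called higher and 7 lower than the common change (0.187% and 92.7% of all genes tested). RPL4 again had the largest departure, at 7.26 and 7.42 per 1000 in low-share and 2.39 and 2.65 in high-share neuron cells (-1.50, SE 0.16, adjusted p = 1.17e-10). RPS9 was at 19.5 and 16.5 against 12.9 and 12.8 (-0.48, adjusted p = 0.00944). For both genes the low-share cells of both replicates were above the high-share cells. RPL5, RPS21, RPL23A and RPL3 were also called lower, at -0.43, -0.41, -0.38 and -0.34. The higher genes were RPL27 (0.47), RPL12 (0.46), RPS27A (0.40), RPL37 (0.40), RPL26 (0.35), RPS4X (0.29) and RPS3 (0.28). Cut at a single bound of 10%, neuron cells gave 0 higher and 2 lower genes, RPL4 among them.

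Ungated cells, with 353 and 425 low-share and 70 and 91 high-share cells, gave 6 higher and 13 lower core genes (0.663% and 93.7% of all genes tested). RPL4 was at 8.13 and 7.90 per 1000 against 2.64 and 2.97, a departure of -1.54 (SE 0.13, adjusted p = 5.68e-13). RPL5 was at 17.1 and 17.9 against 9.24 and 9.95 (-0.90, adjusted p = 6.01e-06). RPL3 and RPS9 departed by -0.65 each. RPL12 rose ahead of the others, from 9.02 and 10.0 to 15.3 and 15.1 per 1000 (0.64, SE 0.12, adjusted p = 5.89e-06). RPS4X, RPS12, RPS25 and RPL37 followed at 0.43, 0.38, 0.35 and 0.34.

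The 3 gates named the same genes in part. All 7 genes called lower in neuron cells were among the 17 of SOX2 cells (41.2% of those), and 6 of the 7 called higher were among the 8. Of all genes tested, 94.5% were called lower in SOX2 and 92.7% in neuron cells, and 0.102% and 0.187% higher. Most genes outside the core were thus called lower in both gates too. RPL3, RPL4, RPL5, RPS21 and RPS9 were called lower and RPL12, RPL26, RPL37 and RPS4X higher in all 3 gates. Across the 72 genes the departures in SOX2 and neuron cells had a Pearson correlation of 0.853, those in SOX2 and ungated cells 0.816, and those in neuron and ungated cells 0.882. These sums share no cells but come from the same 2 libraries, and genes are not independent, so no p is given. The departures in SOX2 cells had a correlation of only 0.254 with the log2 mean level of the genes.

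Summed red cell RNA was higher in the high-share class in 2 of these gates, while the median cell went the other way. Summed over the 10 erythroid genes (globins and heme synthesis), neuron cells had 708 and 718 CPM in the low-share class and 44442 and 104185 CPM in the high-share class, and ungated cells 999 and 1138 against 138442 and 141646 CPM. The median neuron cell had 0.0611% and 0.0627% erythroid UMIs in the low-share and 0.0467% and 0.0522% in the high-share class. For ungated cells these medians were 0.0924% and 0.0815% against 0.0613% and 0.0604%. All 8 tested erythroid genes were called higher in high-share cells in both gates (26.2% and 32.4% of all genes tested). HBA and HBA1 were at 0 in the low-share cells of both gates, and also in high-share neuron cells of replicate 1. HBA was at 0 in high-share ungated cells of replicate 1 too. The counts lay in few cells: 1 of 32 and 3 of 70 high-share neuron cells, and 6 of 70 and 9 of 91 high-share ungated cells, had 1% or more of their UMIs in erythroid genes. In SOX2 cells the list was at 919 and 916 against 542 and 8498 CPM, with 0 and 1 such high-share cells, and 0 of 8 genes were called. Placental genes (7 markers) were at 952 and 10.0 CPM in low-share and 4947 and 2459 CPM in high-share ungated cells, and at 13.2 CPM or less in low-share and high-share SOX2 and neuron cells. Liver and yolk sac genes were at 85.3 and 94.6 CPM in low-share and 397 and 487 CPM in high-share SOX2 cells, and leukocyte genes at 18.1 CPM or less in the low-share and high-share cells of every gate. The part of these cells in the results was tested only for the erythroid-rich ones. Without the erythroid-rich cells RPL4 was called lower in all 3 gates, at -1.53 in SOX2, -1.49 in neuron and -1.52 in ungated cells, while RPL5 in neuron cells lost its call (-0.39, adjusted p = 0.0560).

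Few genes set neuron cells apart from SOX2 cells within the low-share class. On the scale of core ribosomal protein UMIs, 1 of 72 core genes was called higher and 2 lower in neuron cells, against 21.1% and 6.32% of all genes tested. RPS9 was lower, at 19.5 and 16.5 per 1000 in neuron and 27.2 and 26.4 in SOX2 cells (-0.63, SE 0.17, adjusted p = 0.00502). The other lower gene, RPL36, had a departure of -0.43 (adjusted p = 0.0248). It was -0.23 without replicate 2, and its call was lost with ribosomal protein totals alone (adjusted p = 0.0540), with low-share cells under 3% (0.312), in cells of 4000 to 8000 UMIs (0.483) and with classes from the other subunit (0.0652). RPL36 and RPS9 also lost their calls when cells with both SOX2 and neuronal genes were counted as neuron cells (adjusted p = 0.520 and 0.362).

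Whether a gene's departure with share differed between neuron and SOX2 cells was tested as an interaction. Of the core genes 0 of 72 were called higher and 1 lower (0.978% and 4.03% of all genes tested). Without the replicate block, and in 4 other settings, 0 were called lower. RPS9, with a weaker departure in neuron cells by 0.70 (SE 0.24), did not pass (adjusted p = 0.0833). It was called without the replicate block, with DESeq2, with classes cut at 10% and with gates of 2 SOX2 UMIs and 3 neuronal genes.

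Collagen VI cells of low share numbered 9 and 10, too few for a test. Their levels were nonetheless apart from those of the 23 and 56 high-share collagen VI cells for the leading genes: RPL4 was at 9.39 and 10.9 per 1000 against 2.63 and 2.27, and RPS9 at 22.5 and 22.5 against 11.2 and 10.6. RPL5 was at 25.4 and 18.1 against 15.1 and 15.1. These low-share sums rest on few UMIs, as the wider spread of RPL5 shows.

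High-share collagen VI cells were then compared with high-share SOX2 cells, 2 cell types at a similar ribosomal share (26.9% and 26.2% against 24.8% and 24.4% of pooled UMIs). Their depth was not alike, with medians of 13590 and 13185 UMIs in collagen VI and 9680.5 and 9542.5 in SOX2 cells. The median mitochondrial share was 1.17% and 0.913% against 0.218% and 0.164%. What part these differences have in the result was not tested. Of the 72 core genes 16 were called higher and 12 lower in collagen VI cells relative to the core genes together, 38.9% of them, against 11.5% and 43.2% (54.7% in all) of all genes tested. All 28 had the same sign in both replicates, and the departures of the replicates had a Pearson correlation of 0.955 over the 72 genes. The large subunit had 10 higher and 7 lower, and the small subunit 6 higher and 5 lower. This comparison shares its SOX2 cells with the comparison of SOX2 cells by share, so their departures are not independent.

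The largest differences were in small subunit genes. RPS23, a protein of the decoding centre, was at 19.5 and 21.3 per 1000 in collagen VI cells and at 11.5 and 11.3 in SOX2 cells (0.89, SE 0.16, adjusted p = 2.19e-05). RPS27 was at 17.9 and 15.1 against 11.5 and 10.4 (0.64, adjusted p = 0.00134). On the large subunit RPL10, which is added late and is needed for the subunits to join, was at 36.3 and 35.6 against 23.9 and 24.8 (0.61, adjusted p = 0.00189). RPL23 was at 23.2 and 23.8 against 16.0 and 16.9 (0.57). RPL38 (0.51) was the last of the 5 largest. The values of the 2 cell types did not overlap for any of these genes.

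In the other direction RPS15 was at 14.0 and 13.6 per 1000 in collagen VI cells and at 24.2 and 23.7 in SOX2 cells (-0.74, SE 0.16, adjusted p = 0.000272). RPS26, which lies where the messenger leaves the ribosome, was at 5.54 and 6.62 against 10.5 and 10.5 (-0.71, adjusted p = 8.9e-06). RPL24 (-0.48) and RPS7 (-0.47) were also called. Both replicates were lower in collagen VI cells for these 4 genes. RPL4 was at 2.63 and 2.27 against 2.91 and 2.89 and RPS9 at 11.2 and 10.6 against 11.9 and 12.5, and neither was called. Genes of the liver and yolk sac (APOA1, AFP, TTR, RBP4 and AHSG) were at 29675 and 26892 CPM in these collagen VI cells against 397 and 487 CPM in the SOX2 cells, with AFP at 0 UMIs in both; their part in the result was not tested.

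**Figure D4:**
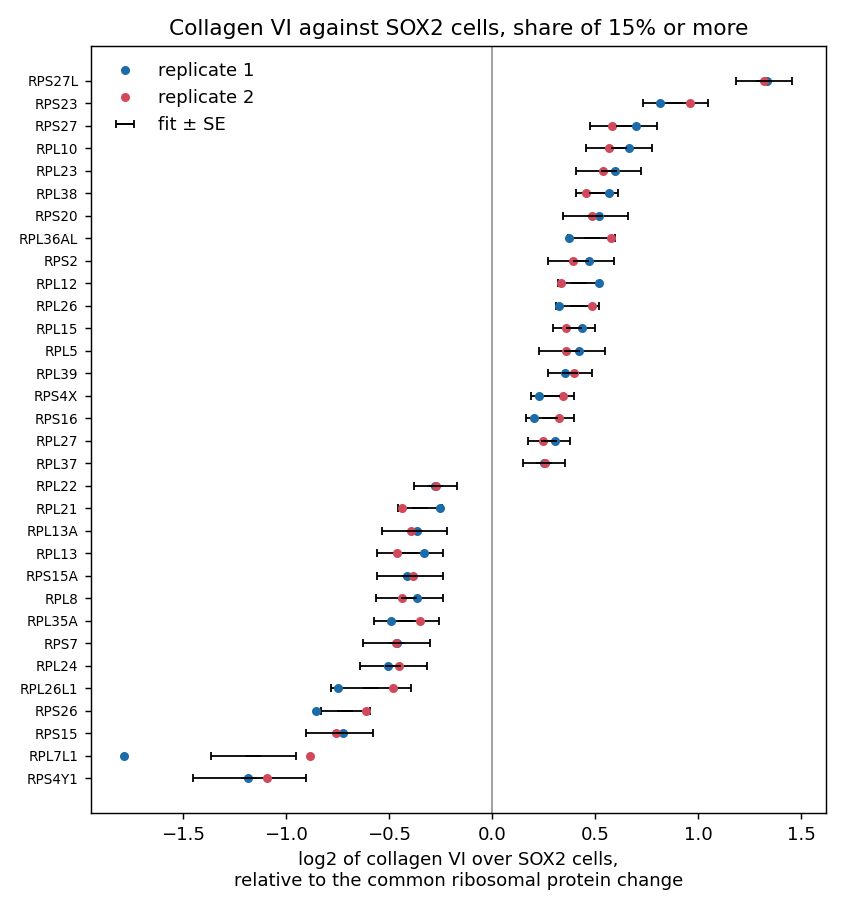
Difference of high-share collagen VI cells from high-share SOX2 cells (x axis, log2, relative to the core ribosomal protein genes together) for core genes and paralogs called. Black bars are the fitted value ± SE and coloured points the 2 replicates. Core genes run from -0.74 for RPS15 to 0.89 for RPS23, and paralogs from -1.18 for RPS4Y1 to 1.32 for RPS27L. The replicates lie on the same side of 0 for each gene.

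The paralogs followed the core genes only in part. Of the 7, RPL3L, a striated muscle form of RPL3, had 6 UMIs in all and was not tested. The other 6 were all called lower than the common change in SOX2 cells, beside 94.5% of all genes tested. RPL7L1, known as a factor of large subunit assembly, was at 4.99 and 4.56 per 1000 in low-share and 0.677 and 0.657 in high-share SOX2 cells, a departure of -2.90 (SE 0.15, adjusted p = 5.84e-19). RPS27L, a copy of RPS27 that is a known target of p53, was at 4.39 and 4.63 against 0.866 and 0.868 (-2.43, SE 0.15, adjusted p = 3.18e-17). Next came RPS4Y1, a copy of RPS4X, at -2.16, RPL22L1, a copy of RPL22, at -2.04, RPL26L1 at -1.37 and RPL36AL at -0.88. Since all 6 departures were smaller in size than the median common change of 4.16, each paralog was still higher in high-share cells on the CPM scale, as for RPL7L1 with 123 and 110 against 167 and 159 CPM. Normalised over all genes, their log2 changes ran from 1.23 (RPL7L1) to 3.24 (RPL36AL), against -0.03 for the median of all genes. RPL36AL thus rose further than the core gene RPL4 (2.58). How the counting treats reads shared by a paralog and its core gene is not stated by the labels, so low paralog levels are uncertain.

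RPS27L varied with cell type as well as with share. It was at 108 and 112 CPM in low-share SOX2 cells, at 33.7 and 41.1 CPM in low-share neuron cells, at 213 and 211 CPM in high-share SOX2 cells and at 561 and 544 CPM in high-share collagen VI cells. Relative to the core genes it was lower in low-share neuron than in low-share SOX2 cells by 1.17 on the log2 scale (SE 0.21, adjusted p = 4.1e-05). It was higher in collagen VI than in SOX2 cells of high share, at 2.10 and 2.10 against 0.866 and 0.868 per 1000 (1.32, SE 0.14, adjusted p = 1.01e-09). Its departure with share differed between neuron and SOX2 cells by 1.22 (SE 0.27, adjusted p = 0.00529, replicates 0.82 and 1.30), a call lost without the 5% of cells with the most UMIs (1.01, adjusted p = 0.0860) and when cells with SOX2 and neuronal genes were counted as neuron cells (0.20, adjusted p = 0.778). Among the other paralogs, collagen VI cells of high share had more RPL36AL (0.48) and less RPS4Y1 (-1.18), RPL7L1 (-1.16) and RPL26L1 (-0.59) than SOX2 cells, while RPL22L1 was not called (0.15, adjusted p = 0.574).

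The kinases whose symbols match the rule are not parts of the ribosome. RPS6KB1 and RPS6KB2 act downstream of mTOR, and the RPS6KA genes encode kinases downstream of the MAP kinase pathway. Of the 10, RPS6KA1 had too few counts to be tested. The other 9, and RPS19BP1, were all called lower than the common ribosomal change in SOX2 cells, as were 94.5% of all genes, with departures from -5.65 (RPS6KA2) to -1.29 (RPS19BP1). Normalised over all genes, RPS6KA2 differed by -1.53, RPS6KA3 by -1.17 and RPS6KB1 by -0.80 between high-share and low-share SOX2 cells, and RPS6KA4 by 1.34 and RPS19BP1 by 2.82; these are descriptions. RPS6KA2 was at 126 and 123 CPM in low-share and at 26.3 and 25.4 CPM in high-share SOX2 cells. In low-share neuron cells it was at 168 and 191 CPM, and relative to the core genes it was higher than in SOX2 cells by 0.92 (SE 0.15), as were RPS6KL1 (1.82) and RPS6KC1 (0.64). Counting only the core genes gave a median share of all cells of 3.83% and 5.16%.

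Genes that make, use or resemble the ribosome were then read between high-share and low-share SOX2 cells, normalised over all genes; each list was taken whole. Of 39 translation factors, 35 rose and 2 fell (median 1.92; 31.2% of all genes rose and 28.8% fell). TPT1 (4.38), the ribosome-bound RACK1 (4.30), EIF3G (4.13) and the elongation factor EEF1A1 (3.92) had the largest rises. EEF1A1 was at 874 and 848 CPM in low-share and at 7945 and 7442 CPM in high-share cells. EIF4H (-1.11) and EIF2S1 (-0.53) were the 2 that fell. TPT1, RACK1 and EEF1A1 thus moved about as far as the core genes, and most other factors less far.

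Genes of ribosome assembly moved in both directions: 16 of 31 rose and 5 fell (median 0.48). The nucleolar proteins NPM1 (3.12) and FBL (2.66), with NHP2 (3.07) and BOP1 (2.36), rose most, and NPM1 was at 271 and 252 CPM against 1373 and 1322 CPM. Those that fell were RRN3, an initiation factor of RNA polymerase I (-1.24), the polymerase I subunits POLR1A (-0.93) and POLR1B (-0.83), and the assembly factors RPF2 (-0.91) and NOP58 (-0.61). RRN3 was at 110 and 119 CPM in low-share and at 28.9 and 28.3 CPM in high-share cells. With DESeq2 the number that rose was 9.

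Energy genes and the mitochondrial ribosome rose as well. Of 76 tested genes of the respiratory chain 74 rose and 0 fell (median 3.09), led by UQCR11 (4.44) and ATP5MC2 (4.38). Of 78 mitochondrial ribosomal proteins, which are encoded by other genes than the cytosolic ones, 60 rose and 3 fell (median 1.72), led by MRPS34 (3.99) and MRPL10 (3.83). Of 36 tested proteasome genes 32 rose and 0 fell (median 1.53), led by PSMB10 (4.20). The changes of the core ribosomal genes were more alike: their SD over genes was 0.38, against 1.01 for the respiratory chain, 1.24 for the mitochondrial ribosome and the proteasome, and 1.45 for the translation factors. This description depends also on how abundant the genes of each list are. The cut used the core genes and not the other lists, so these values are not on an equal footing. The 6 ribosomal proteins outside the rule, also not used for the cut, had an SD of 0.24. In low-share cells 19 of 31 ribosome assembly genes and 11 of 39 translation factors were lower, and 0 higher, in neuron than in SOX2 cells (14.9% of all genes higher and 12.8% lower).

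**Figure D5:**
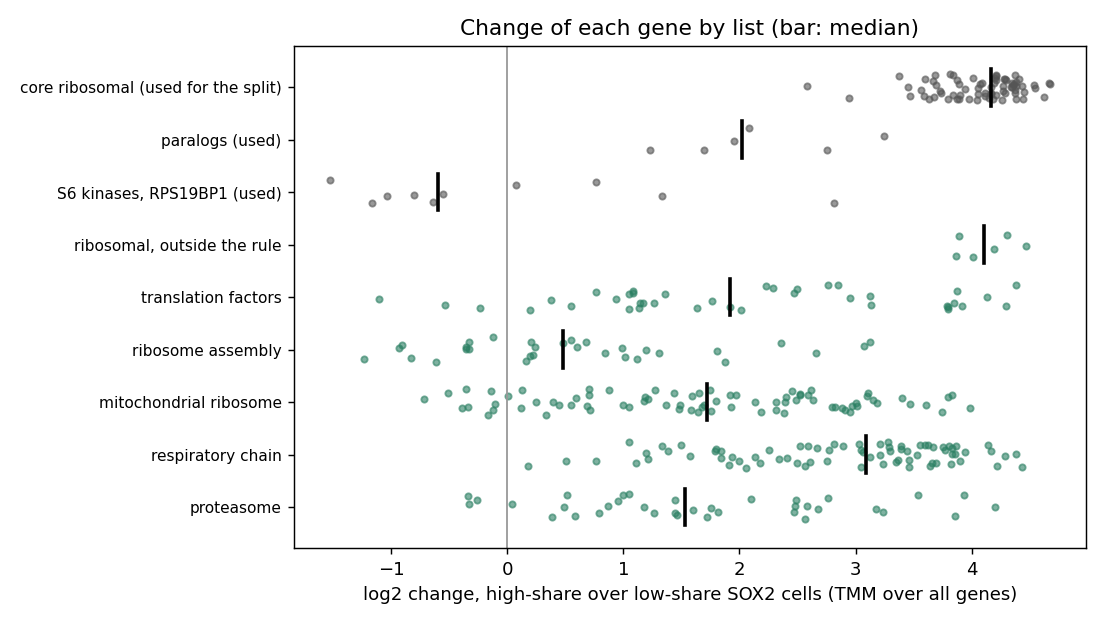
log2 change of each gene (points) between high-share and low-share SOX2 cells, normalised over all genes (x axis), by list (rows), with a bar at each median. The core genes lie between 2.58 and 4.67, the ribosomal proteins outside the rule between 3.87 and 4.47, and the other lists spread further to the left.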

How the data were processed

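The authors deposited raw UMI counts per gene and cell, not normalised. The submitters' processing notes name Cell Ranger, the bosTau9 build, Seurat 4.3.0 and R 4.1.2. Which annotation was counted, and whether introns were, the labels do not state. Symbols are as deposited, and all 90 members matched a RefSeq table of another assembly (ARS-UCD2.0), used for names only. Counts were summed per replicate, gate and share class (14 sums of at least 20 cells) and fitted with edgeR 4.0.16 (R 4.3.3; filterByExpr, robust quasi-likelihood, residual df 6), with TMM over core ribosomal protein rows for departures and over all genes for lists. Each p also draws on the spread of other genes (median prior df 26.9 for departures), which outweighs the gene's own residual df. Sums of 1 replicate come from 1 suspension, so replicate was a block. DESeq2 1.42.0 was an alternative. The fit was tested on simulated data with a fixed dispersion not taken from these data. There 3 of 52 core genes without a simulated departure were called in SOX2 cells. At log2 departures of -0.5 and 0.5, 4 of 5 were called each, and at -1 and 1, 5 of 5 each. Members, lists and gates were chosen with earlier results of these data known. Genes named are all members outside the core, the 10 (SOX2) or 5 (other comparisons) largest called departures each way with the same sign in both replicates, and up to 4 largest changes per list; RPL6, RPL36, RPL23A, RPS19, RPL19, RPL35 and RPL22, and genes that fell in lists, were named after their values were seen. The design did not state how cells in 2 gates are treated. A planned list of nuclear-retained RNAs was not analysed here. Some genes are counted but not reported by name here.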

Additional observations from a re-analysis of the deposited data

Results flagged for a closer look

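Among the ribosomal protein rows, the change with share differed between neuron and SOX2 cells, by a test of the difference itself, for RPS27L. RPS27L, relative to the core genes, fell behind by 2.43 on the log2 scale in SOX2 cells and by 1.21 in neuron cells, a difference of 1.22 (SE 0.27, adjusted p = 0.00529 by edgeR). The call was lost when cells with both SOX2 and neuronal genes were counted as neuron cells (0.20, adjusted p = 0.778) and without the 5% of cells with the most UMIs (1.01, adjusted p = 0.0860), and the difference was 0.82 without replicate 2.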

How the results depend on the processing

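The numbers of core genes called moved with several choices. Gates of 2 SOX2 UMIs, 3 neuronal genes and 3 collagen VI UMIs gave 15 higher (8 in the report) in SOX2 cells, 14 lower (7) in neuron cells, 11 higher (6) in ungated cells, 4 higher (1) and 5 lower (2) between neuron and SOX2 cells, 28 higher (16) in collagen VI cells and 1 higher (0) for the interaction, with median shares of 7.96% for SOX2 and 6.39% for neuron cells. DESeq2 gave 17 higher in SOX2, 12 (7) in neuron and 14 in ungated cells, 7 lower between neuron and SOX2 cells and 1 higher for the interaction, 9 ribosome assembly genes that rose (16) and 2 proteasome genes that fell (0). Classes cut at 10% gave 0 higher and 2 lower in neuron cells, 4 higher and 10 lower between neuron and SOX2 cells, and 1 higher and 0 lower (1) for the interaction; there RPS6KA2 turned from -0.29 to 0.97. Cells with SOX2 and neuronal genes in the neuron gate gave 11 higher and 20 lower in neuron cells, 0 lower between neuron and SOX2 cells and 0 lower for the interaction. Without a filter on low counts neuron cells had 4 higher and collagen VI cells 7 lower (12). Without the 5% of cells with the most UMIs ungated cells had 10 higher and the interaction 0 lower, as it had without erythroid-rich cells. The lower count between neuron and SOX2 cells was 1 with ribosomal totals alone, with classes at 3% and 20%, with classes from the other subunit and with 4000 to 8000 UMIs; mitochondrial ribosome genes that fell were 1 (3) at 3% and 20%. The cause of these moves was not tested.

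The comparisons are paired by suspension. Without the replicate block the SOX2 counts were 8 higher and 18 lower, with 6 and 16 shared, and the interaction had 1 higher and 0 lower. RPL4 was called lower in SOX2, neuron and ungated cells in every setting that could be fitted. With 1 replicate left out no test is possible, and the median share of all cells ranged from 3.98% to 5.35%, of SOX2 cells from 3.77% to 5.39%, of neuron cells from 2.77% to 5.15%, of ungated cells from 3.20% to 3.47% and of collagen VI cells from 20.0% to 24.6%. Too few cells were left to fit neuron, ungated and collagen VI cells and the interaction at 4000 to 8000 UMIs, and neuron cells and the interaction at 3% and 20%. The same held for collagen VI cells without the 5% of cells with the most UMIs. The settings for erythroid-rich cells, for cells in 2 gates and for 4000 to 8000 UMIs were chosen after seeing the data. Depth limits the low-share sums of collagen VI cells most.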
